A study of Homo sapiens with 11 samples.

Results

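The 42 genes described here encode regulators of pre-mRNA splicing: 12 SR proteins, both TRA2 proteins, the 4 CLK kinases, 18 hnRNPs, the 3 proteins of the PTB family, RBFOX2, ESRP1 and ESRP2. They were taken by name from the 58721 genes of the count table, with symbols from GENCODE release 29. The list was chosen with earlier results of these data known, so the shares given below are not independent of the data. The RNA-seq libraries, made from poly(A) RNA, come from A375, a human melanoma line with an activating BRAF mutation that the labels give as WT in genotype. The withdrawn group holds 5 libraries of cells kept in 2 nM trametinib, a MEK inhibitor, for 8 weeks and then grown without it for 4 weeks, the persister group 5 libraries of cells after 8 weeks in 2 nM trametinib, and the parental group 1 library of untreated cells. Withdrawn samples carry the number of the persister culture they were named for. All the groups share the line and the medium, DMEM with 10% FBS. Separate selection of the 5 persister cultures is not stated, so the p-values cover the spread between these samples alone, and that spread may be technical. With 1 parental library, its spread was assumed equal to that of the others.

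SR proteins bind exons through RNA recognition motifs and recruit the spliceosome through domains rich in arginine and serine, while hnRNPs coat nascent transcripts and often keep exons out. CLK kinases phosphorylate the arginine-serine domains and release SR proteins from nuclear speckles, where they are stored. Many SR, TRA2 and hnRNP genes limit their own protein by including a poison exon that sends the transcript to decay, and gene-level counts such as these take all isoforms together.

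Levels are scaled counts in CPM, relative to 1e+06 counts per library, and changes are log2 fold changes from edgeR's quasi-likelihood test with Benjamini-Hochberg adjustment over 23693 genes, called below 0.05. Total counts ran from 56513920 to 82984566 per library, and 42 of 42 members passed the filter on low counts. DUSP6, a phosphatase whose transcription follows ERK activity, averaged 186 ± 9.28 CPM in withdrawn cells and 24.8 ± 4.78 CPM in persister cells (SD, n = 5 each), and stood at 168 CPM in parental cells. Of 12 melanocyte lineage markers, 8, 10 and 9 reached 1 CPM in every withdrawn, persister and parental library, with TYR under 1 CPM throughout. Markers of leukocytes and endothelium (8 genes) summed to 2.01 to 2.65 CPM in withdrawn, 0.768 to 1.32 CPM in persister and 2.07 CPM in parental libraries. Of them 1, 0 and 1 reached 1 CPM in every withdrawn, persister and parental library, and PTPRC and CD3E were under 1 CPM in all. Fibroblast markers (8 genes) summed to 21.2 to 32.2 CPM in withdrawn, 70.1 to 354 CPM in persister and 8.78 CPM in parental libraries. Of them 3, 4 and 3 reached 1 CPM in every withdrawn, persister and parental library, and THY1 was under 1 CPM in all. Withdrawn cells had 7 of them (87.5%) lower and 1 (12.5%) higher than persister cells, beside 28.0% and 24.5% of all genes. Epithelial markers (8 genes) summed to 87.8 to 131 CPM, 136 to 165 CPM and 122 CPM in withdrawn, persister and parental libraries. Of them 3, 2 and 3 reached 1 CPM in every library of these groups, and EPCAM and CDH1 were under 1 CPM in all. The persister libraries were uneven: 20 proliferation markers summed to 1543, 5328, 4167, 4126 and 663 CPM in persister 1 to 5, against 5300 CPM in the parental library, while the withdrawn libraries lay between 4431 and 4813 CPM. Mitochondrially encoded genes, a sign of RNA and library quality, took 3.15% to 3.70% of counts in withdrawn, 4.51% to 9.28% in persister (8.88% and 9.28% in persister 1 and 5) and 2.96% in parental libraries. The part of these differences in the results was not tested.

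Per kilobase of exon, HNRNPA1, HNRNPA2B1 and HNRNPK were the most abundant members, and CLK3 and CLK4 were among the scarcest. HNRNPA1, which binds exonic and intronic silencers, led in every group, with 314 ± 22.1 CPM per kb in withdrawn and 199.6 ± 57.0 CPM per kb in persister cells (SD, n = 5 each) and 327 CPM per kb in parental cells. HNRNPA2B1, its close relative, followed in withdrawn cells with 175.9 ± 6.57 CPM per kb, and had 122.9 ± 27.7 CPM per kb in persister and 232 CPM per kb in parental cells. HNRNPK, which binds C-rich RNA, had 141.7 ± 5.45, 137 ± 21.9 and 185 CPM per kb in withdrawn, persister and parental cells. In persister cells its mean lay above that of HNRNPA2B1, and differences between genes were not tested. At the other end of the expressed members lay the kinases CLK3 with 2.80 ± 0.114 and CLK4 with 1.49 ± 0.0272 CPM per kb in withdrawn cells. The neuronal PTB relative PTBP2 (1.47 ± 0.104 CPM per kb in withdrawn cells) was near CLK4. SRSF12, ESRP1 and ESRP2 stayed below 0.5 CPM per kb in every group mean.

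Persister cells had lower mRNA levels than parental cells of most SR genes, of TRA2B and of several hnRNP and PTB genes. Apart from the nearly silent SRSF12, the largest of these differences were in HNRNPD (2.80-fold), PTBP2 (2.77-fold), HNRNPDL (2.38-fold), SRSF1 (2.26-fold) and TRA2B (2.23-fold). Against parental cells, 18 of 42 members were lower in persister cells and 0 were higher by edgeR, 42.9% lower against a background of 15.1% of all genes lower and 16.1% higher (31.2% called in either direction). At an unadjusted p under 0.05, 2 members were higher, and limma-voom called 0 and DESeq2 1 higher. The median log2 fold change of the members was -0.547, against 0.094 over all genes tested, and 37 of 42 values lay below 0. Among the 6030 genes whose log2 CPM averaged 5 or more, a class closer to the members in abundance, 21.7% were lower and 20.4% higher. By family, 8 of 12 SR genes, 1 of 2 TRA2 genes, 1 of 4 CLK genes, 6 of 18 hnRNP genes, 2 of 3 PTB genes and 0 of the 3 RBFOX and ESRP genes were lower. The parental library lay above all 5 persister libraries for 29 members, and 33.2% of the 14772 genes with a mean of at least 1 CPM showed this. With persister and parental libraries alone in the fit, 4 members and 2569 genes in all were called, against 7391 genes with all libraries. In bulk RNA, fewer cells of a type and less RNA per cell cannot be told apart.

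Once the drug was gone, PTBP2 (2.16-fold), HNRNPD (1.94-fold), HNRNPDL (1.75-fold), HNRNPA1 (1.58-fold) and TRA2B (1.53-fold) were higher than in persister cells, while TRA2A (2.08-fold) and SRSF6 (1.71-fold) were lower. After withdrawal 17 of 42 members (40.5%) were higher and 3 (7.14%) lower than in persister cells, beside 24.5% of all genes higher and 28.0% lower (52.5% in either direction). The median log2 fold change was 0.228 over the members and -0.033 over all genes tested, and among the 6030 abundant genes 31.3% were higher and 30.7% lower. Higher members comprised 4 SR genes, TRA2B, 2 CLK genes, 7 hnRNP genes, 2 PTB genes and RBFOX2, and lower members were SRSF6, TRA2A and ESRP1. Withdrawn libraries lay above all persister libraries for 15 members and below them for 2, while 25.7% and 24.9% of genes with at least 1 CPM did so. Culture by culture, 18 members were higher and 3 lower in 5 of 5 withdrawn cultures than in the persister culture of the same number. The share of all genes doing so was not counted, so these counts are not read as particular to the members. Without persister 1 and 5, 16 members were higher and 8 lower: SRSF11 lost its call, and SRSF2, SRSF3, SRSF5, HNRNPA0 and HNRNPM were called lower in withdrawn cells. That fit called 12646 genes in all, 47.6% of them higher. Without persister 5 alone 17 members were higher and 5 lower, with ESRP1 lost and SRSF2, SRSF5 and HNRNPM gained. There 12537 genes were called in all, 47.3% of them higher.

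Between withdrawn and parental cells 1 member, TRA2A, was lower and 0 were higher, with 0.118% of all genes lower and 0.312% higher (0.431% in either direction). At an unadjusted p under 0.05, 7 members were lower and 0 higher. The share of all genes at that unadjusted threshold was not counted in any comparison. DESeq2 called 5 members lower, among 1156 genes called in all, and limma-voom 1, each with 0 members higher. Of the 102 genes called, 72.5% were higher, against 60% of the 95 called under upper-quartile scaling and 52.3% of the 109 called by limma-voom. The members' median log2 fold change was -0.311, against 0.046 over all genes, and 35 of 42 values lay below 0. The parental library lay above all 5 withdrawn libraries for 30 members, as for 34.2% of genes with at least 1 CPM, and was the highest of all 11 libraries for 25 members, as for 18.5% of those genes. This comparison rests on the spread pooled over all libraries, in which the persister libraries vary most. With withdrawn and parental libraries alone, 24 members were lower and 1 higher, with 6593 genes called in all, and without persister 1 and 5 there were 14 lower members and 1 higher member (CLK3), with 2086 genes called. Those 14 were TRA2A, TRA2B, SRSF1, SRSF2, SRSF3, SRSF6, SRSF7, SRSF10, HNRNPA2B1, HNRNPH1, HNRNPK, HNRNPM, HNRNPU and PTBP1. The comparisons share libraries, so their values are set side by side and not counted as separate evidence.

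**Figure D1:**
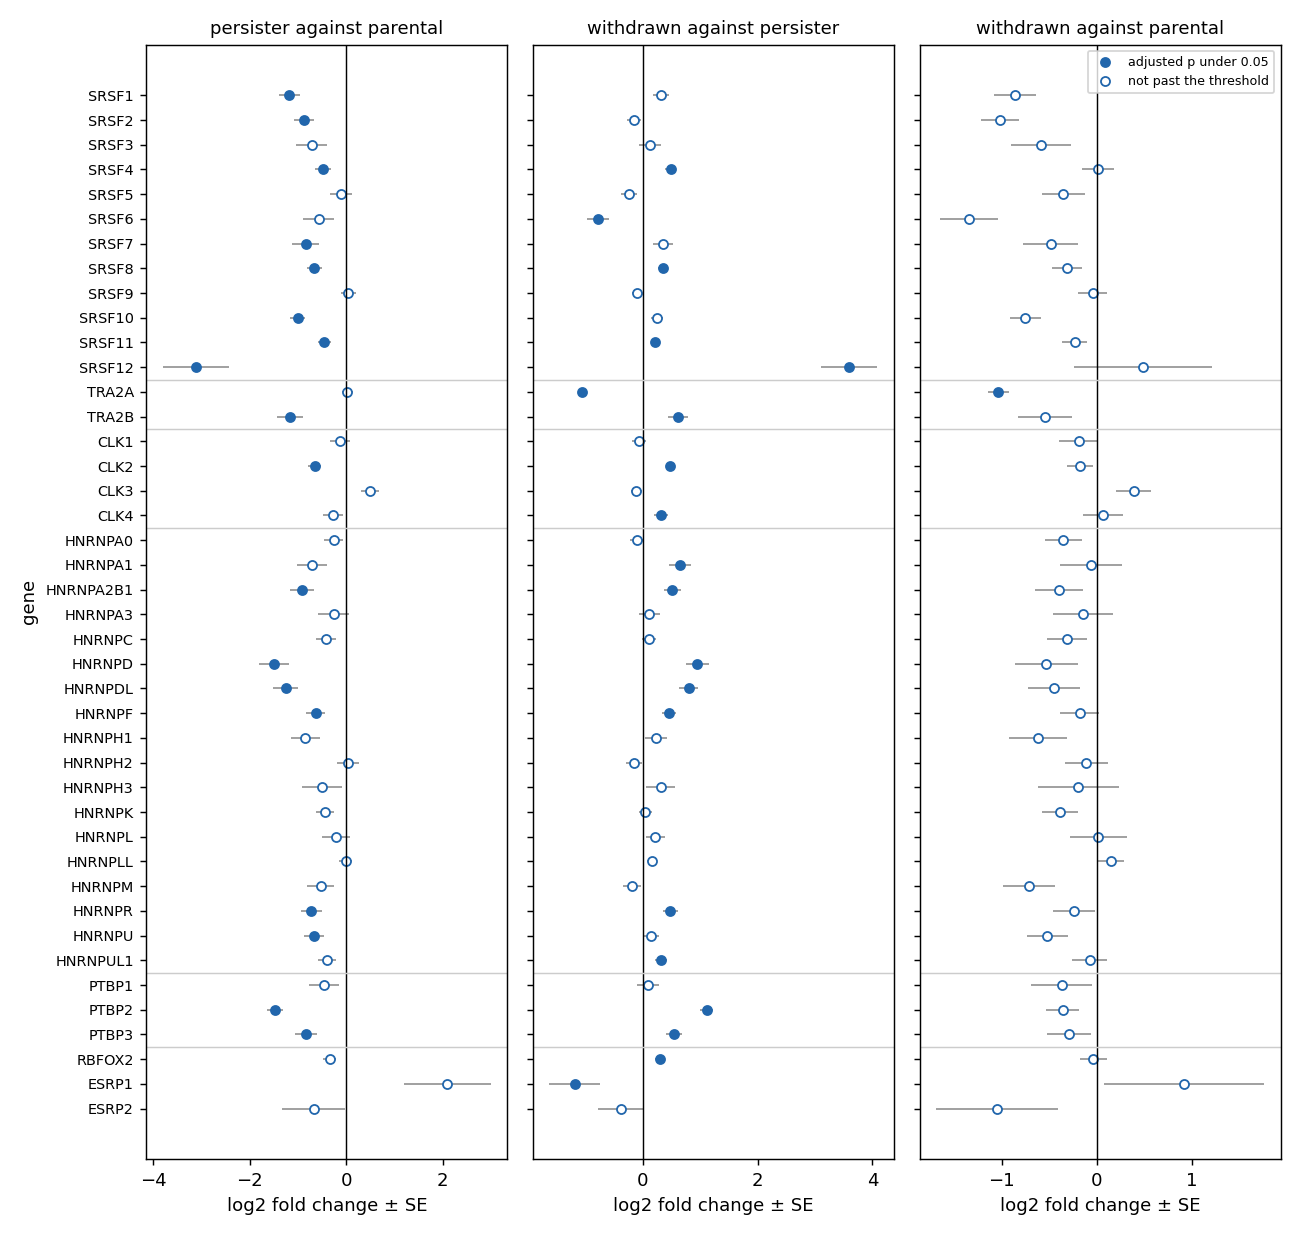
Log2 fold change of each of the 42 members (points) with its standard error (bars) for persister against parental (left), withdrawn against persister (middle) and withdrawn against parental cells (right), filled where the adjusted p is under 0.05, the horizontal scale differing between panels. In persister against parental cells 37 points lie below 0, in withdrawn against persister cells 30 lie above 0, and in withdrawn against parental cells TRA2A is the filled point.

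Among the SR genes, SRSF10 and SRSF1 had the lowest adjusted p in persister cells. SRSF10 (chr1:23964804-23980927 in GRCh38, minus strand), which turns into a splicing repressor when dephosphorylated, had 100, 125, 118, 134 and 94.3 CPM in persister 1 to 5, against 229 CPM in parental cells. Every persister library lay well under the parental one, 2.00-fold on average (log2 fold change -1.003, SE 0.16, adjusted p 9.11e-04). Withdrawn libraries had 131 to 142 CPM, above every persister library but persister 4, without passing the test against persister cells (0.25, SE 0.10, adjusted p 0.0531) or against parental cells (-0.75, SE 0.16, adjusted p 0.0722). SRSF1 (chr17:58003360-58007346, minus strand), the founding member of the family, had 55.7, 88.2, 65.6, 76.3 and 50.8 CPM in persister 1 to 5 and 152 CPM in parental cells. It was 2.26-fold lower in persister cells (-1.18, SE 0.22, adjusted p 0.00211). In withdrawn libraries it stood at 75.6 to 87.3 CPM, overlapping the persister range, with adjusted p 0.0661 against persister and 0.109 against parental cells. Of the 50-base stretches in SRSF1 exons, 54.6% also occur in other annotated genes, mainly AC015813.2, so its count is uncertain.

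SRSF2, which stays in the nucleus, averaged 126 ± 22.7 CPM in persister cells (SD, n = 5) and 230 CPM in parental cells (log2 fold change -0.87, adjusted p 0.00719). It had 104 to 129 CPM in withdrawn cells, inside the persister range, with adjusted p 0.0523 against parental cells, and was called lower than in parental cells in 9 of 20 alternatives. Without persister 5, and without persister 1 and 5, SRSF2 was also called lower in withdrawn than in persister cells. Its exons share 29.2% of 50-base stretches with MFSD11 on the opposite strand. SRSF7, which also serves mRNA export, was lower in persister cells (135 ± 38.8 CPM, against 241 CPM in parental cells, -0.84, adjusted p 0.041), a call lost without persister 1 and without each withdrawn library in turn. SRSF8, a gene copied from SRSF2, had 41.8 ± 5.37 CPM in persister and 66.2 CPM in parental cells (-0.66, adjusted p 0.00739). Withdrawn cells were at 53.4 ± 2.70 CPM, above every persister library (0.36, adjusted p 0.00735), a call lost without cultures 1 and 5.

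SRSF4, a long SR protein, was the SR gene that after withdrawal lay closest to the parental level. It had 122, 126, 127, 122 and 120 CPM in withdrawn 1 to 5, 75.9, 80.2, 105, 98.2 and 80.4 CPM in persister 1 to 5, and 122 CPM in parental cells. Withdrawn and persister libraries did not overlap (0.49, SE 0.10, adjusted p 0.00123), and the fall in persister cells passed the threshold narrowly (-0.48, adjusted p 0.0423), failing without persister 1 and without each withdrawn library in turn. SRSF11, which contacts the 3′ splice site factor U2AF, was lower in persister cells (134 ± 11.4 CPM, against 183 CPM in parental cells, -0.45, adjusted p 0.0208). Its rise after withdrawal to 156 ± 7.06 CPM (0.22, adjusted p 0.0315) was lost in 12 of 21 alternatives, among them the culture number as a block and the fit without persister 1 and 5.

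SRSF6, by contrast, was lower in withdrawn than in persister cells. This SR protein (chr20:43457928-43464247, plus strand) had 129, 141, 139, 142 and 143 CPM in withdrawn 1 to 5, 145, 307, 279, 292 and 166 CPM in persister 1 to 5, and 352 CPM in parental cells. The persister libraries split, with persister 1 and 5 just above the withdrawn range and persister 2, 3 and 4 far above it. The withdrawn mean was 1.71-fold lower than the persister mean (-0.78, SE 0.19, adjusted p 0.00578), and the call held in every alternative tried. Against parental cells withdrawn SRSF6 was 2.54-fold lower, with an adjusted p of 0.0861 (-1.34, SE 0.31), and persister cells had a log2 fold change of -0.56 with an adjusted p of 0.20. SRSF6 counts were 1.06 to 1.19 times SRSF4 counts in withdrawn, 1.91 to 3.83 times in persister and 2.88 times in parental libraries.

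With all libraries in the fit, SRSF3, SRSF5 and SRSF9 were not called in any of the 3 comparisons. SRSF3, the smallest SR protein, had 340 to 368 CPM in withdrawn, 179 to 402 CPM in persister and 523 CPM in parental libraries. Its values in persister 1 and 5 were 251 and 179 CPM, below the other persister libraries, and without them withdrawn SRSF3 was lower than persister SRSF3 by 0.154 on the log2 scale (-0.154, adjusted p 0.0464). Without this pair, SRSF3 was also called lower against parental cells, both in withdrawn and in persister cells. SRSF5 had 118 to 132 CPM in withdrawn, 110 to 177 CPM in persister and 158 CPM in parental libraries, and SRSF9, the nearest relative of SRSF1, had 55.9 to 63.2 CPM in withdrawn, 52.0 to 73.3 CPM in persister and 61.9 CPM in parental libraries. SRSF5 was called lower in withdrawn than in persister cells without persister 5, and without persister 1 and 5. SRSF9 shares 43.9% of its 50-base stretches with GATC on the opposite strand. SRSF12, which opposes other SR proteins, was nearly silent, with counts of 44, 56, 34, 28 and 50 in withdrawn 1 to 5, 2, 1, 1, 5 and 9 in persister 1 to 5, and 30 in parental cells. No withdrawn library overlapped a persister library (log2 fold change 3.60, SE 0.49, adjusted p 9.27e-05), and persister cells were lower than parental cells (-3.11, SE 0.69, adjusted p 0.00577).

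The SR genes together summed to 1480 to 1549 CPM in withdrawn libraries, 1190, 1699, 1668, 1719 and 1083 CPM in persister 1 to 5, and 2320 CPM in the parental library. The withdrawn libraries lay within the persister range, between its low pair, persister 1 and 5, and its other libraries. The hnRNPs summed to 8699 to 9349 CPM in withdrawn libraries, 6445, 8245, 7713, 8001 and 4646 CPM in persister 1 to 5, and 11114 CPM in the parental library, so that their withdrawn and persister sums did not overlap. Abundant genes weigh most in this sum. Persister and withdrawn means were 7010 and 8898 CPM for the sum, 1017 and 1601 CPM for HNRNPA1, and 1139 and 1630 CPM for HNRNPA2B1. Between these groups 11 of 18 hnRNP genes were not called. Sums of 62 other splicing regulators did not overlap either (7887 to 8202 and 5252 to 7688 CPM), while those of 70 core spliceosome genes did. Persister 1 and 5 were also the libraries lowest in proliferation markers and highest in mitochondrial counts, and their part in these sums was not tested.

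**Figure D2:**
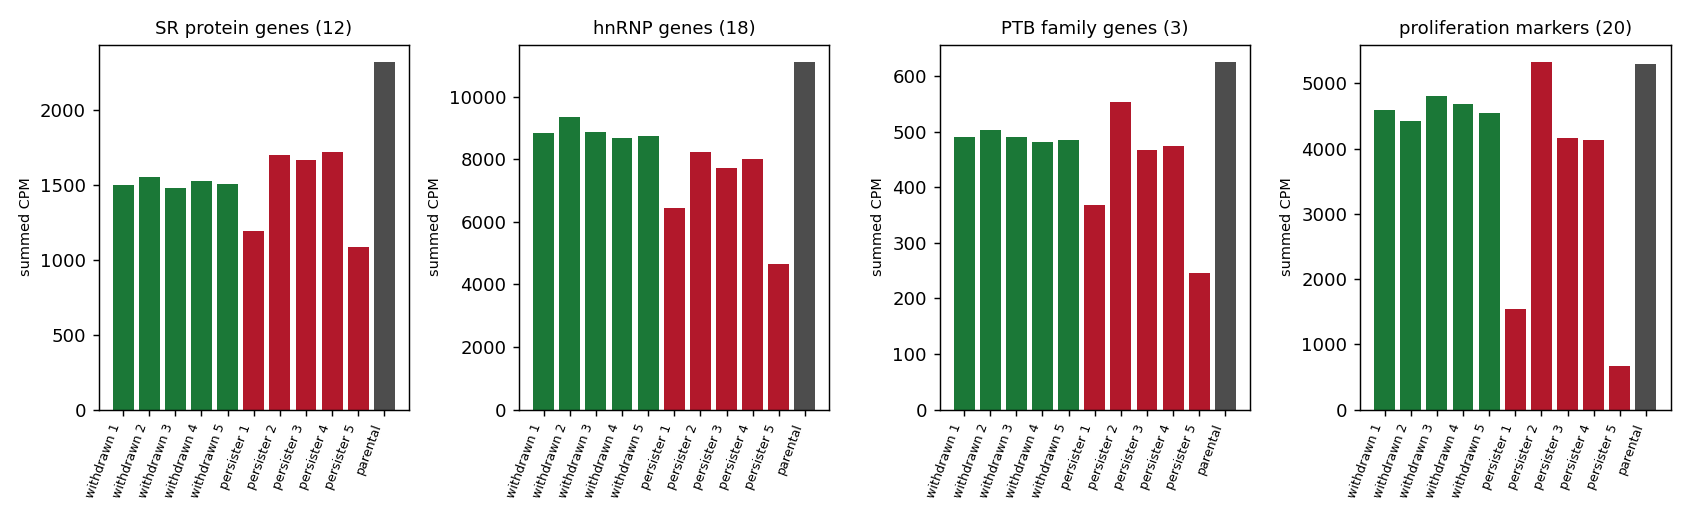
Summed CPM per library (bars from 0) of the 12 SR genes, 18 hnRNP genes, 3 PTB genes and 20 proliferation markers, withdrawn libraries to the left, then persister and parental. Persister 1 and 5 are the lowest bars in all 4 panels. The withdrawn hnRNP sums of 8699 to 9349 CPM all exceed the persister sums, in which abundant genes such as HNRNPA1 and HNRNPA2B1 weigh most.

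The TRA2 genes moved in opposite directions after withdrawal. Both encode homologues of the fly sex-determination factor Transformer-2 and bind purine-rich exonic enhancers. TRA2A (chr7:23504780-23532041, minus strand) had 35.3, 38.6, 37.1, 38.1 and 38.1 CPM in withdrawn 1 to 5, 80.8, 75.7, 79.4, 81.8 and 71.1 CPM in persister 1 to 5, and 76.6 CPM in parental cells. The withdrawn libraries formed a tight group at about the same distance below the persister and the parental libraries, which lay together. TRA2A was 2.08-fold lower in withdrawn than in persister cells (-1.06, SE 0.07, adjusted p 3.65e-07) and 2.05-fold lower than in parental cells (-1.03, SE 0.11, adjusted p 0.00237). Both calls held in every alternative tried, with adjusted p against parental cells of 2.66e-15 to 0.0327, and no 50-base stretch of TRA2A exons occurs in another annotated gene. In persister against parental cells its log2 fold change was 0.02 (SE 0.12, adjusted p 0.902).

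TRA2B (chr3:185915906-185938136, minus strand) had 217, 224, 202, 215 and 208 CPM in withdrawn 1 to 5, 108, 184, 150, 166 and 88.7 CPM in persister 1 to 5, and 311 CPM in parental cells. The 3 groups did not overlap, with persister cells lowest and parental cells highest. TRA2B was 1.53-fold higher in withdrawn than in persister cells (0.61, SE 0.17, adjusted p 0.0105) and 2.23-fold lower in persister than in parental cells (-1.16, SE 0.27, adjusted p 0.00801), while withdrawn against parental cells gave -0.55 (adjusted p 0.39). TRA2B counts were 5.44 to 6.14 times TRA2A counts in withdrawn, 1.25 to 2.43 times in persister and 4.06 times in parental libraries, a range in withdrawn cells that lay above both other groups.

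**Figure D3:**
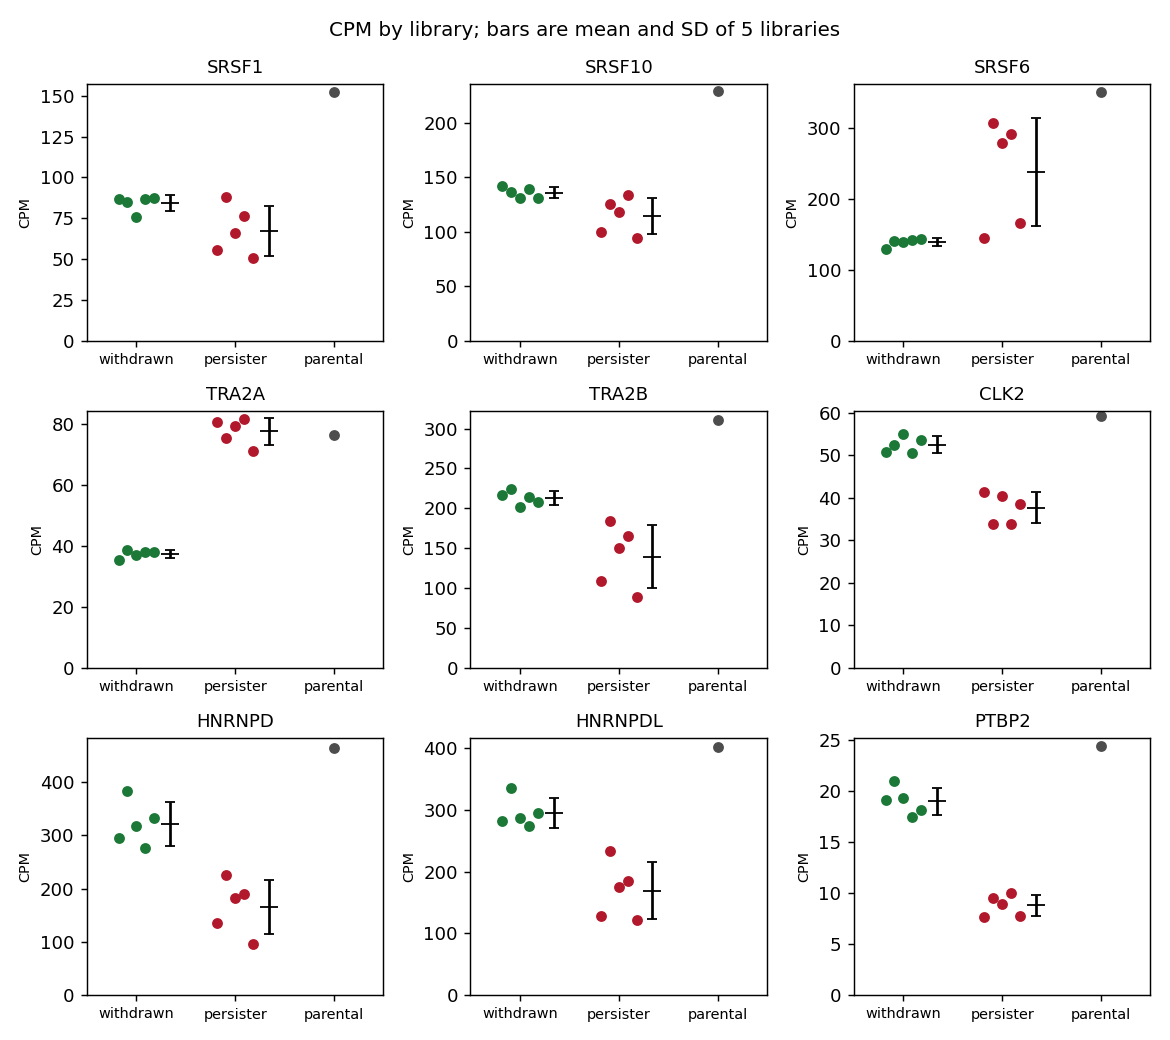
CPM of SRSF1, SRSF10, SRSF6, TRA2A, TRA2B, CLK2, HNRNPD, HNRNPDL and PTBP2 in each library (points), withdrawn at the left, persister in the middle and parental at the right, with the group mean and SD where n = 5. TRA2A and SRSF6 are lowest in withdrawn cells, PTBP2 and HNRNPD are lowest in persister cells, and SRSF10 is highest in the parental library at 229 CPM.

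Of the kinases, CLK2 changed in both comparisons with persister cells. CLK2 (chr1:155262868-155278491, minus strand) had 50.7, 52.4, 55.1, 50.4 and 53.5 CPM in withdrawn 1 to 5, 41.4, 33.9, 40.4, 33.8 and 38.5 CPM in persister 1 to 5, and 59.1 CPM in parental cells. No persister library reached the others (0.48, SE 0.08, adjusted p 3.84e-04 for withdrawn against persister cells, and -0.65, SE 0.13, adjusted p 0.00347 for persister against parental cells). CLK2 was lowest in persister 4, while 34 of 42 members (81.0%) had their lowest persister value in persister 1 or 5. The same held for 48.7% of genes with at least 1 CPM. CLK4 was higher in withdrawn cells (11.8 ± 0.216 CPM, against 9.43 ± 1.62 CPM in persister cells, 0.33, adjusted p 0.0401), with overlapping groups, and the call was lost in 11 of 21 alternatives, among them the culture number as a block. CLK1, which like CLK4 regulates its own splicing, averaged 18.8 ± 3.21 CPM in withdrawn, 19.7 ± 1.61 CPM in persister and 21.5 CPM in parental cells, and passed no test. CLK3 had 54.9 to 60.8 CPM in withdrawn and 53.4 to 77.4 CPM in persister libraries, all above the parental 43.7 CPM, with adjusted p 0.0591 for persister against parental cells (0.50, SE 0.18). Without persister 1 and 5, CLK3 was called higher in persister than in parental cells.

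HNRNPD and HNRNPDL had the largest falls among the hnRNPs in persister cells. HNRNPD, also called AUF1, binds AU-rich elements that set the stability of many short-lived mRNAs, and HNRNPDL is its close relative, encoded 48.1 kb away on the same strand of chromosome 4. HNRNPD (chr4:82352498-82374503, minus strand) had 296, 384, 318, 276 and 333 CPM in withdrawn 1 to 5, 135, 226, 183, 191 and 95.2 CPM in persister 1 to 5, and 465 CPM in parental cells. It was 2.80-fold lower in persister than in parental cells (-1.49, SE 0.31, adjusted p 0.00432) and 1.94-fold higher in withdrawn than in persister cells (0.95, SE 0.20, adjusted p 0.00194). HNRNPDL (chr4:82422564-82430408, minus strand) had 281, 337, 288, 274 and 296 CPM in withdrawn 1 to 5, 128, 234, 176, 185 and 122 CPM in persister 1 to 5, and 403 CPM in parental cells. For both genes the 3 groups did not overlap, and withdrawn 2 and persister 2 were the highest of their groups. HNRNPDL was 2.38-fold lower in persister cells (-1.25, SE 0.26, adjusted p 0.00393) and 1.75-fold higher in withdrawn cells (0.80, SE 0.16, adjusted p 0.00157).

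The abundant HNRNPA1 and HNRNPA2B1 also rose after withdrawal. HNRNPA1 (chr12:54280193-54287088, plus strand) had 1507, 1748, 1621, 1472 and 1659 CPM in withdrawn 1 to 5, 933, 1203, 1201, 1205 and 541 CPM in persister 1 to 5, and 1665 CPM in parental cells. Withdrawn libraries stood above all persister libraries and around the parental level (0.66, SE 0.19, adjusted p 0.0126 against persister cells, and -0.06, adjusted p 0.963 against parental cells). Persister against parental cells gave -0.71 (SE 0.31, adjusted p 0.102), and the gene was called lower without persister 1 and 5. Of its 50-base stretches 23.0% occur in other genes, and its 74 named pseudogenes hold counts equal to 16.4% to 18.5% of its own. HNRNPA2B1, known for N6-methyladenosine reading and microRNA sorting, averaged 1630 ± 60.9 CPM in withdrawn and 1139 ± 256 CPM in persister cells (SD, n = 5 each) and 2149 CPM in parental cells. It was higher in withdrawn than in persister cells (0.52, adjusted p 0.0126), and persister cells had less than parental cells (-0.92, adjusted p 0.0145).

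HNRNPF, HNRNPR and HNRNPU were also called lower in persister than in parental cells. HNRNPF, which binds G-rich runs, averaged 293 ± 10.3 CPM in withdrawn and 214 ± 40.1 CPM in persister cells, with 332 CPM in parental cells (-0.63, adjusted p 0.033 for persister against parental, and 0.45, adjusted p 0.00842 for withdrawn against persister). HNRNPR had 396 ± 10.3, 284 ± 58.9 and 468 CPM in withdrawn, persister and parental cells (-0.72, adjusted p 0.0259, and 0.48, adjusted p 0.00943). Withdrawn and persister libraries did not overlap for either gene. HNRNPU, a nuclear matrix protein, averaged 873 ± 170 CPM in persister and 1387 CPM in parental cells (-0.67, adjusted p 0.032) and 969 ± 14.9 CPM in withdrawn cells, within the persister range. Its exons share 14.3% of 50-base stretches with other genes, mostly COX20 on the opposite strand. The calls of HNRNPF and HNRNPU in persister cells were lost on leaving out withdrawn 1, 2, 3 or 5. HNRNPUL1, named for its likeness to HNRNPU, rose after withdrawal to 416 ± 12.6 CPM, against 332 ± 50.5 CPM in persister cells (0.33, adjusted p 0.0232), a call lost without withdrawn 1, 3 or 5 and without cultures 1 and 5. Without persister 1 and 5, HNRNPUL1 was called lower in persister cells than in the parental library.

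The other 10 hnRNP genes (HNRNPA0, HNRNPA3, HNRNPC, HNRNPH1, HNRNPH2, HNRNPH3, HNRNPK, HNRNPL, HNRNPLL and HNRNPM) passed no test in the 3 comparisons with all libraries in the fit. Without persister 1 and 5, HNRNPC, HNRNPH1, HNRNPK and HNRNPM were called lower in persister than in parental cells, HNRNPA0 and HNRNPM lower in withdrawn than in persister cells, and HNRNPH1, HNRNPK and HNRNPM lower in withdrawn than in parental cells. HNRNPH1, a G-run binder that acts with HNRNPF, had 379 to 397 CPM in withdrawn, 208 to 459 CPM in persister and 595 CPM in parental libraries, with adjusted p 0.0518 for persister against parental cells (-0.85, SE 0.30). It was called lower there in 9 of 20 alternatives. HNRNPC, which covers uridine tracts, had 540 to 597 CPM in withdrawn libraries, 599, 536, 570, 550 and 358 CPM in persister 1 to 5, and 701 CPM in parental cells. HNRNPM had 259 to 280 CPM in withdrawn libraries, 320, 375.04, 334, 340 and 176 CPM in persister 1 to 5, and 446 CPM in parental cells. For both genes persister 5 stood far below the other persister libraries, and without it HNRNPC and HNRNPM were called lower in persister than in parental cells, and HNRNPM lower in withdrawn than in either. HNRNPLL, known for CD45 splicing in T cells, had the smallest spread of these genes in persister cells, with 52.3 to 56.0 CPM in withdrawn, 41.7 to 54.0 CPM in persister and 49.4 CPM in parental libraries. HNRNPL, its relative that binds CA repeats, had 283 to 301 CPM in withdrawn, 153 to 315 CPM in persister and 287 CPM in parental libraries. HNRNPK had 684 to 761 CPM in withdrawn, 533 to 820 CPM in persister and 946 CPM in parental libraries, and HNRNPA3 had 312 to 344 CPM in withdrawn, 192 to 423 CPM in persister and 361 CPM in parental libraries. In each of these 3 genes the wide persister range enclosed the withdrawn libraries. HNRNPA0 had 152 to 176 CPM in withdrawn, 134 to 204 CPM in persister and 205 CPM in parental libraries. HNRNPH2 had 74.5 to 84.0 CPM in withdrawn, 59.8 to 105 CPM in persister and 86.2 CPM in parental libraries, and HNRNPH3 had 106 to 134 CPM in withdrawn, 52.4 to 152 CPM in persister and 132 CPM in parental libraries. Without persister 2, HNRNPH2 was called lower and HNRNPH3 higher in withdrawn than in persister cells, among 12942 genes called in all. In that fit HNRNPK was also called lower in persister than in parental cells.

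The PTB family binds pyrimidine-rich tracts, and PTBP1 is known to hold PTBP2 down by having an exon skipped. PTBP2 (chr1:96721665-96823738, plus strand) had 19.2, 21.0, 19.3, 17.5 and 18.1 CPM in withdrawn 1 to 5, 7.68, 9.54, 8.92, 10.0 and 7.77 CPM in persister 1 to 5, and 24.4 CPM in parental cells. The 3 groups did not overlap, and the persister libraries ran from 7.68 to 10.0 CPM, with persister 1 and 5 the lowest. PTBP2 was 2.77-fold lower in persister than in parental cells (-1.47, SE 0.16, adjusted p 8.45e-05) and 2.16-fold higher in withdrawn than in persister cells (1.11, SE 0.11, adjusted p 6.29e-06). PTBP1 averaged 355 ± 8.93 CPM in withdrawn and 333 ± 100 CPM in persister cells, with 459 CPM in parental cells, and passed no test with all libraries. PTBP1 counts were 17.4 to 19.7 times PTBP2 counts in withdrawn, 23.0 to 45.8 times in persister and 18.8 times in parental libraries. PTBP3, the third relative, was lower in persister cells (80.1 ± 19.1 CPM, against 143 CPM in parental cells, -0.83, adjusted p 0.0165) and higher after withdrawal (116 ± 4.06 CPM, 0.54, adjusted p 0.00665), a rise whose call was lost without cultures 1 and 5.

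Promoter windows are shown for HNRNPD and HNRNPDL, neighbouring genes that moved together, for PTBP2, whose fall in persister cells had the smallest adjusted p of the members, and for SRSF6, which moved the other way after withdrawal. Each runs from 250 bases before to 50 bases after the RefSeq start in GRCh38.p14, 5′ to 3′ on the gene's strand, with matches in capitals to the E-box CACGTG, the ETS motif CCGGAAG or the GC box GGGCGG on either strand. No matches overlap in these windows, and a match describes letters only. RBFOX2, ESRP1, TRA2A, HNRNPA1, SRSF2 and ESRP2 have no window in the table used. HNRNPD is at chr4:82373942-82374241 (minus), HNRNPDL at chr4:82430176-82430475 (minus, 1 of 2 windows of this gene), PTBP2 at chr1:96722388-96722687 (plus) and SRSF6 at chr20:43457646-43457945 (plus).
HNRNPD: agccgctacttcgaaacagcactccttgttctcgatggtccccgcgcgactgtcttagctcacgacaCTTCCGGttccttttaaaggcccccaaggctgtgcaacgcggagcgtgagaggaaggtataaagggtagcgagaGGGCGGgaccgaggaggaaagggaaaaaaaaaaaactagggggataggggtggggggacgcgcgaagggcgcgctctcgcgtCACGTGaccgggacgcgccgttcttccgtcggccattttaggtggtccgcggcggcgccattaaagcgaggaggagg
HNRNPDL: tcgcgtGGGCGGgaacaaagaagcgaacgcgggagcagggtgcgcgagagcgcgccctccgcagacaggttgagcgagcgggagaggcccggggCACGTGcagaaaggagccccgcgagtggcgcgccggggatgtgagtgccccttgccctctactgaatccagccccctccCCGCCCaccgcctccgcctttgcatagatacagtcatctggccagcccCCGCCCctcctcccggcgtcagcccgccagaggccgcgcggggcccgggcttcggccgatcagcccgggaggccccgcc
PTBP2: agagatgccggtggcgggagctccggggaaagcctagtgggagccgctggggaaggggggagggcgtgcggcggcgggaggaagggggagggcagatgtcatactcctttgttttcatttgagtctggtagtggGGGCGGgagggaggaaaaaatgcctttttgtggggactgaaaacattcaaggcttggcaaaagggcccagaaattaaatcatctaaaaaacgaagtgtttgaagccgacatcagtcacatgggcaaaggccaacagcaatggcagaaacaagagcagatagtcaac
SRSF6: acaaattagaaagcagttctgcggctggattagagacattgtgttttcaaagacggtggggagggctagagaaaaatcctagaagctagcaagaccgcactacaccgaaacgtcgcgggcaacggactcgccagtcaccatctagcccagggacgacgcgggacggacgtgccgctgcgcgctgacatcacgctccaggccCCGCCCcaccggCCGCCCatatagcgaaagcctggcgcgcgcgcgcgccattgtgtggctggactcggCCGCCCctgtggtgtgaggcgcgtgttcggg
The HNRNPD window holds 1 E-box, 1 ETS match and 1 GC box, the HNRNPDL window 1 E-box and 3 GC boxes, the PTBP2 window 1 GC box and the SRSF6 window 3 GC boxes. Of the 36 members in the RefSeq promoter table, 25.0% had an E-box, 19.4% an ETS match and 75.0% a GC box in a window, against 8.77%, 12.2% and 48.3% of its 27305 genes. Those genes were not restricted to expressed ones, and a match in any window of a gene counted, with 4 windows for HNRNPH1. Shares among expressed genes were not counted, so these values are not read as particular to the members. Among these members, an E-box was present in 3 of the 17 lower in persister than in parental cells (17.6%) and in 6 of the 19 others (31.6%). An ETS match was present in 17.6% and 21.1% of these, and a GC box in 70.6% and 78.9%.

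RBFOX2, which reads a conserved intronic hexamer, had 129 to 141 CPM in withdrawn, 92.5 to 118 CPM in persister and 138 CPM in parental libraries. It rose after withdrawal without overlap between the groups (0.30, SE 0.08, adjusted p 0.00925), and persister against parental cells gave -0.34 (adjusted p 0.0835), a difference called without persister 5 and without persister 1 and 5. The epithelial splicing regulators were barely detected. ESRP1 had counts of 72, 23, 61, 108 and 62 in withdrawn 1 to 5, 73, 73, 79, 368 and 193 in persister 1 to 5, and 33 in parental cells. Persister 4 and 5 stood above the rest, the groups overlapped, and the lower level in withdrawn cells (-1.18, SE 0.44, adjusted p 0.0424) failed in 9 of 21 alternatives, among them without persister 4 and without persister 5. ESRP2 had counts of 8 to 25 in withdrawn libraries, 11 to 36 in persister libraries and 31 in parental cells, and passed no test.

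Levels of the members varied more between persister than between withdrawn libraries. The median coefficient of variation over the members was 4.04% in withdrawn and 20.5% in persister cells, and it was larger in persister cells for 40 of 42 members. Genes with at least 1 CPM also varied more in persister cells, with medians of 6.47% and 19.7%. The share of them with the larger value in persister cells was not counted, so the larger spread is not read as particular to the members. Persister 5 was the lowest of the 5 persister libraries for 27 of 42 members (64.3%) and 16 of 18 hnRNPs (88.9%), as it was for 29.9% of genes with at least 1 CPM. MKI67, a proliferation marker, stood at 45.4 CPM in that library and at 154, 707, 496 and 518 CPM in persister 1 to 4. Without persister 1 and 5, persister cells had 26 members lower and 1 (CLK3) higher than parental cells. In that fit 8965 genes were called in all, 51.6% of them higher, against 7391 genes, 51.7% of them higher, with all libraries.

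**Figure D4:**
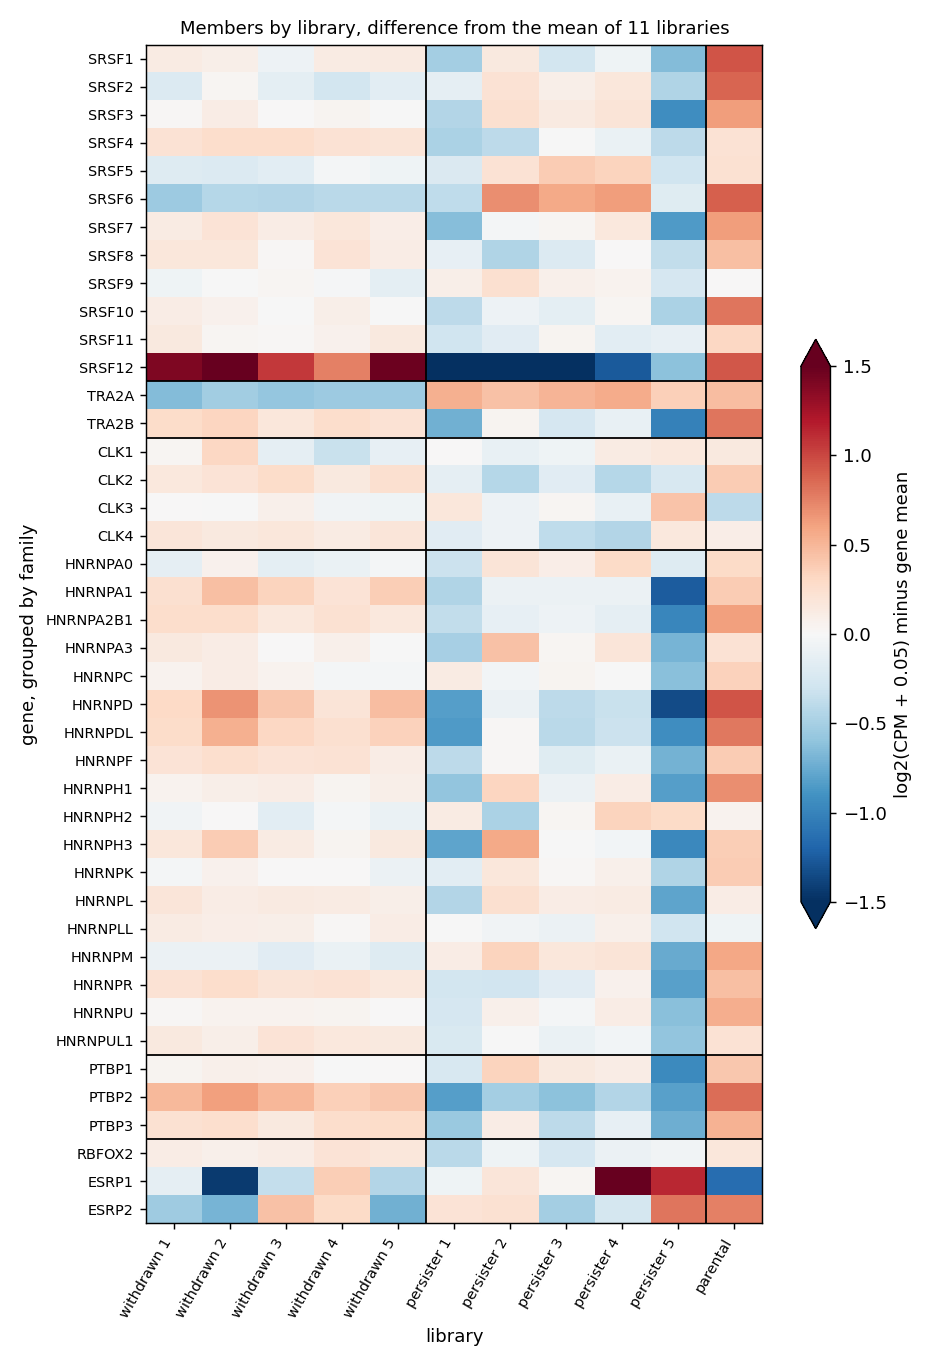
Log2 of (CPM + 0.05) of each of the 42 members (rows, by family) in the 11 libraries (columns, withdrawn, then persister, then parental), relative to the member's mean over the libraries, with colours clipped at -1.5 and 1.5. For 34 members the lowest persister value is in persister 1 or 5, as for 48.7% of genes with at least 1 CPM. The parental column is the highest of all libraries for 25 members, as for 18.5% of those genes, and TRA2A is low in the withdrawn columns.

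Other genes of the splicing pathway were counted from lists of known roles. The shares of all genes to set beside them are 15.1% lower and 16.1% higher in persister than in parental cells, and 24.5% higher and 28.0% lower in withdrawn than in persister cells. Of 12 kinases, phosphatases and other proteins that act on SR proteins, persister cells had 5 lower than parental cells and 0 higher, and withdrawn cells had 5 higher than persister cells and 0 lower by edgeR, with 7 and 5 at an unadjusted p under 0.05 and again 0 in the other direction. That is 41.7% of the list in each comparison. They include TOP1, a topoisomerase that also phosphorylates SR proteins, at 457 ± 12.7 CPM in withdrawn, 246 ± 28.8 CPM in persister and 528 CPM in parental cells (-1.10, adjusted p 2.08e-04 for persister against parental, and 0.90, adjusted p 7.99e-06 for withdrawn against persister). SRPK1, the cytoplasmic SR protein kinase, had 106 ± 4.07 CPM in withdrawn, 66.2 ± 17.8 CPM in persister and 122 CPM in parental cells (0.68, adjusted p 0.00305 for withdrawn against persister). Of 24 nuclear speckle and SR-related genes, 9 were lower and 0 higher in persister cells (1 higher at an unadjusted p under 0.05), and 6 were higher and 3 lower after withdrawal. These are 37.5% lower in persister cells, above the share of all genes, and 25.0% higher and 12.5% lower after withdrawal, the higher share being near that of all genes. ARGLU1, a speckle protein, had 91.7 ± 5.99 CPM in withdrawn, 57.0 ± 5.81 CPM in persister and 119 CPM in parental cells (-1.06, adjusted p 2.52e-04, and 0.68, adjusted p 5.04e-05). RBM25 was lower after withdrawal, at 125 ± 2.70 CPM, against 179 ± 28.3 CPM in persister cells (-0.52, adjusted p 0.00145).

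Of 55 other splicing regulators tested among 62 listed, persister cells had 3 higher and 15 lower than parental cells, and 16 were higher and 6 lower in withdrawn than in persister cells. The shares were 5.45% higher and 27.3% lower in persister cells, and 29.1% higher and 10.9% lower after withdrawal, the 29.1% being near the share of all genes. CELF2, a regulator best known from heart, brain and T cells, was the 1 gene of these lists called between withdrawn and parental cells. It had 49.2 to 71.7 CPM in withdrawn, 4.64 to 19.6 CPM in persister and 0.428 CPM in parental libraries (7.08, SE 1.01, adjusted p 0.021 for withdrawn against parental). RBM5 was lower after withdrawal (30.5 ± 1.97 CPM, against 47.0 ± 3.47 CPM in persister cells, -0.62, adjusted p 5.92e-05), with 46.6 CPM in parental cells. Of 70 core spliceosome genes, persister cells had 2 higher and 17 lower than parental cells, and 20 were higher and 8 lower after withdrawal. The shares were 2.86% higher and 24.3% lower in persister cells, and 28.6% higher and 11.4% lower after withdrawal, the 28.6% again near the share of all genes. SNRPB2, a U2 snRNP protein, had 329 ± 16.0 CPM in withdrawn, 124 ± 13.6 CPM in persister and 316 CPM in parental cells (-1.35, adjusted p 5.29e-05, and 1.41, adjusted p 3.55e-07). SF3B5, of the SF3b complex, moved the other way, with 31.9 ± 0.839 CPM in withdrawn, 54.3 ± 7.29 CPM in persister and 33.4 CPM in parental cells (0.70, adjusted p 0.00979, and -0.77, adjusted p 4.19e-05). Of 13 nonsense-mediated decay factors, persister cells had 2 lower and 0 higher (1 at an unadjusted p under 0.05) than parental cells, and 1 was higher and 3 lower after withdrawal. The 15.4% lower in persister cells equals about the share of all genes, and the 7.69% higher and 23.1% lower after withdrawal are both below it. SMG1, the kinase that starts this decay, had 163 ± 3.93 CPM in withdrawn, 96.4 ± 20.7 CPM in persister and 246 CPM in parental cells (-1.35, adjusted p 5.57e-04, and 0.76, adjusted p 4.09e-04).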

How the data were processed

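The authors deposited raw gene counts, neither normalized nor pooled, in 1 table of 11 libraries (5 withdrawn, 5 persister, 1 parental). RNeasy Plus extraction and a KAPA stranded mRNA kit were used, per the labels' protocols. The tools bcl2fastq, HISAT2 and HTSeq and the build hg38 are named per the submitters' processing notes. Tool versions, the annotation and the counting's strand setting: not given in the sources used here. Without that setting, a member and a gene on its opposite strand cannot be told apart where exons overlap. Exon bases were shared with any other gene for 18 of 42 members, and with an opposite-strand gene for 13. Named pseudogenes exist for 18 members, 127 in all.

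All 58721 IDs matched GENCODE 29 (GRCh38), the source of symbols, coordinates and exon lengths. edgeR 4.0.16 in R 4.3.3 fitted all 11 libraries with 3 groups after filterByExpr (minimum count 10, minimum total 15) and TMM scaling, by robust quasi-likelihood with 8 residual degrees of freedom and Benjamini-Hochberg adjustment over 23693 genes (threshold 0.05). SE is the absolute log2 fold change divided by the square root of F. CPM used the TMM library sizes. Sequences shared with other genes were counted as 50-base stretches of annotated transcripts. Alternatives were limma 3.58.1 (voom), DESeq2 1.42.0, other scalings and filters, the 2 groups alone, left-out libraries and a replicate block.

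Withdrawn samples carry the number of their persister culture in the labels, which pairs them. Deviations of same-numbered libraries from their group means correlated at 0.0484 to 0.0909 across genes, and 5 of 5 withdrawn libraries correlated best with their own number. The members and lists were chosen with earlier results of these data known. All members are named, and from each other list at most the 2 genes with the smallest adjusted p per direction and comparison could be named.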

Additional observations from a re-analysis of the deposited data

Results flagged for a closer look

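Of 84 groups of 5 libraries examined, 4 held a library far from the others of its group, and chance flags about 1 in 20 groups. HNRNPC stood at 358 CPM in persister 5, against 536 to 599 CPM in the other persister libraries. HNRNPM stood at 176 CPM in the same library, against 320 to 375.04 CPM in the others. SRSF1 had 75.6 CPM in withdrawn 3, against 84.8 to 87.3 CPM in the other withdrawn libraries, and SRSF6 had 129 CPM in withdrawn 1, against 139 to 143 CPM.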

How the results depend on the processing

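For withdrawn against persister cells, 14 of 20 called members kept their call in 21 of 21 alternatives, and in persister against parental cells 4 of 18 (SRSF1, SRSF10, HNRNPD and PTBP2) did so in 20 of 20. The share of all called genes that kept their call was not counted, so these counts are not read as particular to the members. With only the 2 groups compared, 4 members were lower in persister than in parental cells (2569 genes called in all), while 24 members were lower and 1 higher in withdrawn than in parental cells (6593 genes in all). Without persister 1 and 5, 26 members were lower and 1 higher in persister than in parental cells, with 8965 genes called in all. Withdrawn against persister cells then had 16 members higher and 8 lower, with 12646 genes called. Withdrawn against parental cells had 14 members lower and 1 higher, with 2086 genes called. SRSF3 in withdrawn against persister cells then turned to -0.154. Members lower in withdrawn than in parental cells numbered 3 with upper-quartile scaling (95 genes called in all) and 5 with DESeq2 (1156 genes). They numbered 2 without a low-count filter (106 genes), 2 with at least 10 counts in 5 libraries (155 genes), and 4 without cultures 1 and 5 (81 genes). DESeq2 called 1 member (ESRP1) higher in persister than in parental cells and 1156 genes in withdrawn against parental cells, where the stricter filter called 155. The cause of these differences was not tested.

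Leaving out 1 library at a time gave 14 to 24 members lower and 0 to 1 higher in persister than in parental cells, 14 to 20 higher and 2 to 5 lower in withdrawn than in persister cells, and 1 to 6 lower in withdrawn than in parental cells. In all genes the calls ran from 6474 to 8849, from 10973 to 12942, and from 23 (without withdrawn 5) to 558 (without persister 5). With the culture number as a replicate block, withdrawn against persister cells gave 15 members higher and 3 lower and 10630 genes in all, ending the calls of SRSF11 and CLK4 and no other member's. With 1 parental library, that group's spread limits both comparisons made with it.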
